A study of Rattus norvegicus with 5 samples.

Results

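The genes described here make cholesterol and fatty acids or control that synthesis. They were taken from a list of 30 rat symbols: 19 enzymes of the sterol steps, 5 of the fatty acid steps and 6 regulators. A probe was matched to a symbol through the RefSeq accession in the array files. Of the 30 genes, 28 had a probe, among 15167 genes named on the array; Lbr and Srebf1 had no matched probe, so no level is given for them and only their promoters were read. The series asks what Tmub1, a membrane protein that carries a ubiquitin-like domain, does to transcription in cells from rat liver. All 5 groups were BRL-3A cells, an established line grown from the liver of a Buffalo rat, in medium with serum. The groups were cells given a lentivirus for Tmub1 overexpression, cells given that virus's negative control, cells given a lentivirus for Tmub1 knockdown, cells given its own negative control, and normal cells given no virus. Transduced cells were harvested at 48 h, and each group was read on 1 one-colour array, so there is no replicate and no test.

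Cholesterol is built from acetyl-CoA. The mevalonate steps give farnesyl diphosphate, squalene is made from it and closed to lanosterol, and a chain of reductases, demethylases and a desaturase turns lanosterol into cholesterol. When membrane sterol is low, Scap carries the SREBP transcription factors from the endoplasmic reticulum to the Golgi, where they are cut and released to switch on these enzymes. Insig proteins hold Scap back when sterol is plentiful. The SREBP made from Srebf2 acts mainly on sterol enzymes and that from Srebf1 on fatty acid enzymes, with the factor NF-Y bound to CCAAT boxes nearby.

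Promoters were taken from RefSeq for the build GRCr8 as the 250 bases before the start of transcription. The table gave 24 promoters for 23 of the 30 genes; no entry was matched for Pmvk, Fdft1, Sqle, Stard4, Fasn, Acaca and Elovl6. The box CCAAT was searched on both strands, as were the E-box CACGTG, the motif TCACCCCAC and its looser form TCACNCCAC. TCACCCCAC is the textbook core of a sterol regulatory element and is one form of TCACNCCAC. CCAAT stood in 19 of the 24 promoters, or 79.2%, against 34% of 33465 promoters of the table and 35.2% of the 12917 whose gene was on the array. In the sterol steps it stood in 81.2% of 16 promoters. CACGTG stood in 3 of the 24, or 12.5%, against 5.59% of all promoters. Neither TCACCCCAC nor TCACNCCAC stood in any of the 24; they stood in 0.409% and 0.974% of all promoters, and their absence says only that these letters are not in these windows. The last 160 bases before the start are shown for Sc5d, Nsdhl and Fdps, at least 2.5-fold higher with the knockdown virus than in its control. They are also shown for Idi1 and Dhcr7, the pair at least 2.5-fold lower on every transduced array than in normal cells. Capitals mark CCAAT or, where the box lies on the opposite strand, its complement ATTGG.
Sc5d, chr8:51538278-51538437, minus strand: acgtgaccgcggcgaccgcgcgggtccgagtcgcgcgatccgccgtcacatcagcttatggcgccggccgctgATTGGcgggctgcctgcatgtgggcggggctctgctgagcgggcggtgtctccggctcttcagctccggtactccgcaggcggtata
Nsdhl, chrX:155817200-155817359, plus strand: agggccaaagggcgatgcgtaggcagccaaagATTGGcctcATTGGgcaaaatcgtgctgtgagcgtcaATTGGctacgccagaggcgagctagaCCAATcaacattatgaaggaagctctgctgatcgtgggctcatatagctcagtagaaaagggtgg
Fdps, chr2:176804817-176804976, minus strand: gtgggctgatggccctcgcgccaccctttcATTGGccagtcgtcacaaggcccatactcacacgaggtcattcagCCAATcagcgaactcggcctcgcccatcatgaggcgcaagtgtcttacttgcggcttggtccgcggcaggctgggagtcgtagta
Idi1, chr17:66547525-66547684, minus strand: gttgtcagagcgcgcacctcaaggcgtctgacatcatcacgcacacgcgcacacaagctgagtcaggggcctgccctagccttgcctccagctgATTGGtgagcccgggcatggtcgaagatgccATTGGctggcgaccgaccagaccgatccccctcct
Dhcr7, chr1:208444274-208444433, plus strand: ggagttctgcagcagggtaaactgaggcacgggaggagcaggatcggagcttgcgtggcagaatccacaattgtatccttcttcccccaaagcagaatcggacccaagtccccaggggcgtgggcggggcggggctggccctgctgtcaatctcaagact
Of these 5 windows, Dhcr7's had no CCAAT box, and its full 250 bases had none either. Nsdhl had 5 boxes in its 250 bases, of which the outermost lies beyond the bases shown. Fdps and Idi1 had 2 each. Sc5d had 1, which lay 87 bases before the start on the opposite strand. These 5 promoters were picked by different comparisons of these data and are too few to relate box counts to the differences.

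Tmub1, the targeted gene, had a level of -1.42 with the knockdown virus against 0.45 in its negative control, which is 3.65-fold lower. With the overexpression virus it had 0.44 against 0.37 in its negative control, so this probe showed no rise. These and all further levels are log2 of a probe's processed signal minus the 75th percentile of its array, and probes of different genes bind differently, so levels are not compared between genes. Across the 5 arrays the median processed signal lay between 116.4 and 356.2 intensity units, 67.0% to 86.6% of probes were well above background, and 0 spots were saturated. The normal array was scanned on another day than the 4 transduced arrays, so scan day and group cannot be told apart in comparisons with normal cells. The labels call the cells hepatocytes. Of 8 hepatocyte markers, 5 or 6 were well above background on each array, with Tf, Hnf4a, Serpina1 and Fgb above it on all 5, Alb on 2 and Cps1 on none. Of 8 fibroblast and stellate cell markers, all 8 were well above background on each transduced array and 7 in normal cells, where Pdgfra was not. Their levels ran from Col1a1 and Col3a1, at 6.69 to 8.01 on all 5 arrays, to Thy1, at -5.68 to -4.66. A member was called higher or lower where 2 arrays differed by at least 2.5-fold, or 1.32 on the log2 scale, and the brighter value was well above background. Intervals are 95% intervals from the scanner software's error of the spots; they leave out differences between cultures.

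Of the 28 genes, 26 were well above background on all 5 arrays. The exceptions were Acaca, acetyl-CoA carboxylase, which was not well above background on any array, and Acat2, the cytosolic thiolase that joins acetyl-CoA units, whose only spot on the array of the knockdown negative control was marked as an outlier. Leaving out Acaca, the highest array was that of normal cells for 16 of 27 genes, and for 12 the lowest was that of the knockdown virus. The sterol steps made up most of the first count, with 12 of 18 highest in normal cells. Of the 4 fatty acid enzymes above background, 3 were lowest with the knockdown virus. Among all genes with a value on 5 arrays, 32.3% were highest in normal cells. The share of all genes lowest with the knockdown virus was not counted. On that array 8883 of 15061 genes lay below its negative control and 9122 of 15140 below normal cells, so low values there were common. The 4 transduced arrays lay within 0.40 of each other for Idi1 and within 0.31 for Dhcr7, and spread over 2.31 for Sc5d.

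**Figure D1:**
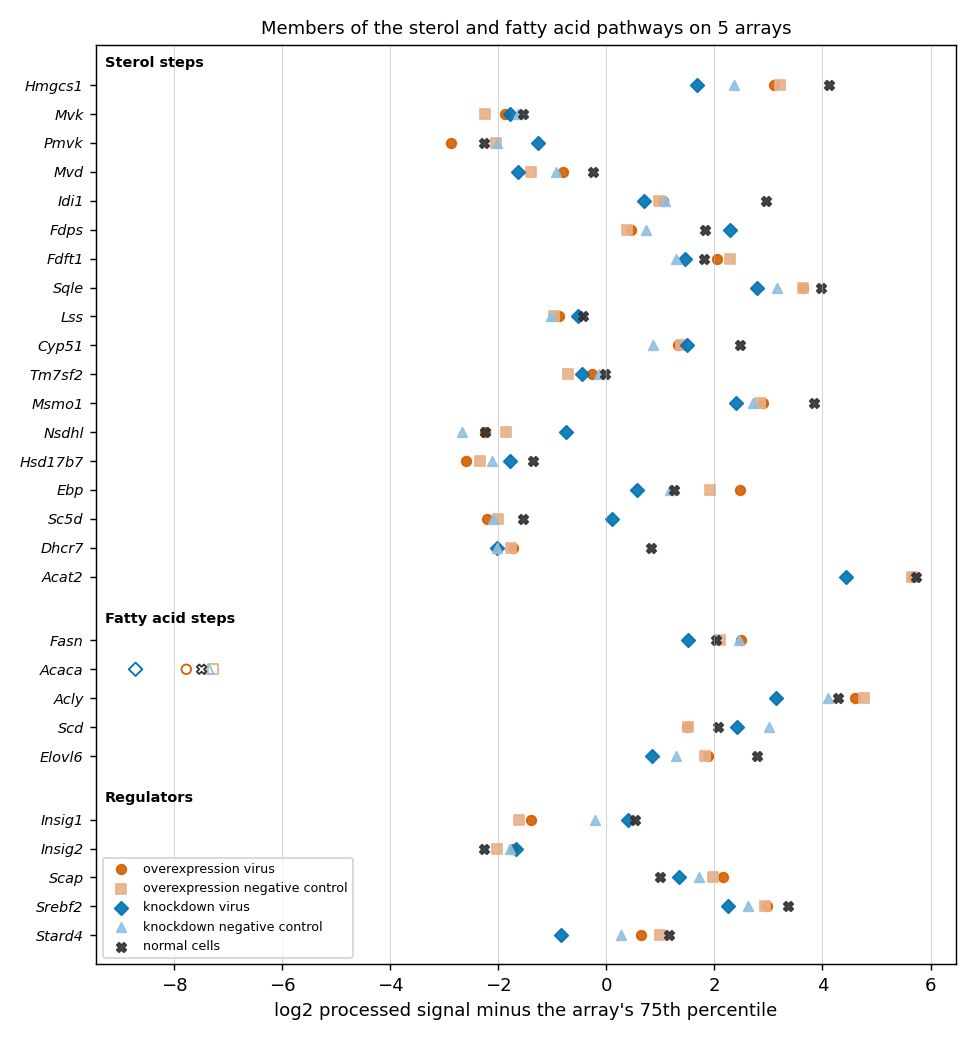
Levels of the 28 genes on 5 arrays, as log2 processed signal minus the array's 75th percentile; each mark is 1 array, and an open mark is not well above background. Normal cells stand apart on the right for Idi1 and Dhcr7, and the knockdown virus stands apart on the right for Sc5d and Nsdhl.

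The overexpression virus was set against its negative control to ask what differs in cells that carry the Tmub1 vector. None of the 27 members that could be called was higher or lower, where 1.7% of all genes were higher and 1.01% lower. In the sterol steps the median difference was 0.03, against -0.04 over all genes. The differences reached from -0.84 for Pmvk, phosphomevalonate kinase, to 0.60 for Mvd, the decarboxylase that follows it. Pmvk had -2.88 with the overexpression virus and -2.04 in its negative control. Mvd had -0.80 with the overexpression virus and -1.40 in its negative control. These 2 consecutive steps of the mevalonate route therefore lay on opposite sides of 0, each with a scanner interval that leaves out 0. The same held for 3 further members: Ebp, the sterol isomerase, at 0.55, Tm7sf2, a sterol reductase, at 0.45, and the sterol carrier Stard4 at -0.36. A dimmer probe of Stard4, below background in the negative control, went the other way, at least 1.12-fold higher. The enzymes at either end of the pathway were close to 0, with Hmgcs1, which makes HMG-CoA, at -0.10 and Dhcr7, the reductase of the last step, at 0.03. Sqle, squalene epoxidase, had 3.63 with the overexpression virus and 3.65 in its negative control. Among the fatty acid enzymes above background, Fasn, the fatty acid synthase, was at 0.39, Elovl6, an elongase, at 0.04, Scd, a desaturase, at -0.02 and Acly, ATP citrate lyase, at -0.17. The regulators had a median of 0.20, with Insig2 at 0.29, Insig1 at 0.22, Scap at 0.20 and Srebf2 at 0.03.

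The knockdown virus was set against its negative control to ask what differs when Tmub1 is low. Here 3 enzymes of the sterol steps rose, Sc5d, Nsdhl and Fdps, and no member fell by the threshold. They make up 11.5% of the 26 callable members and 17.6% of the 17 callable sterol enzymes, where 8.53% of all genes were higher and 10.1% lower. Over the members the share called higher was near that of the whole array, and over the sterol enzymes it was above it on 3 calls. The median over the sterol steps was 0.00, against -0.23 over all genes, and the 17 members with a value lay 9 above and 8 below 0. The rise was thus in single enzymes and not across the steps.

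Sc5d, the desaturase that acts on the sterol ring shortly before the last step, had 0.11 with the knockdown virus and -2.09 in its negative control. On the other arrays it had -2.20 with the overexpression virus, -2.00 in the negative control of that virus and -1.54 in normal cells. The knockdown array was the single high one, and Sc5d was 4.61-fold higher than in its control, a log2 difference of 2.20 (1.80 to 2.61). Nsdhl, a dehydrogenase that helps remove methyl groups from the sterol ring, had -0.75 with the knockdown virus and -2.67 in its negative control. It had -2.25 with the overexpression virus, -1.86 in the negative control of that virus and -2.25 in normal cells. It was again highest with the knockdown virus, 3.78-fold above its control, and that control was the lowest of the 5 arrays. Fdps, which makes farnesyl diphosphate, had 2.30 with the knockdown virus and 0.73 in its negative control, a 2.97-fold difference. It had 0.45 with the overexpression virus, 0.38 in the negative control of that virus and 1.83 in normal cells. The normal array lay nearer to the knockdown array than to the other transduced arrays for Fdps, which was not so for Sc5d. A dimmer probe of Fdps had 0.96 with the knockdown virus and -0.21 in its negative control, which is 2.24-fold and under the threshold, in the same direction.

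The enzymes next to these in the pathway did not follow them. Idi1, the isomerase just before Fdps, had 0.70 with the knockdown virus and 1.09 in its negative control. Fdft1, squalene synthase, which uses the product of Fdps, had 1.46 with the knockdown virus and 1.29 in its negative control. Msmo1 and Hsd17b7, which act beside Nsdhl in the removal of methyl groups, differed by -0.32 and 0.32. Dhcr7, which follows Sc5d, had -2.03 in both the knockdown virus and its negative control. Ebp, which comes just before Sc5d, had 0.58 with the knockdown virus and 1.18 in its negative control, a difference of -0.60. Of the remaining early enzymes, Pmvk lay at 0.76, Mvk, mevalonate kinase, at -0.15, Mvd at -0.72 and Hmgcs1 at -0.68. After squalene, Cyp51, lanosterol demethylase, lay at 0.62, Lss, lanosterol synthase, at 0.49, Tm7sf2 at -0.32 and Sqle at -0.36. Cyp51 was read from 10 spots, and its interval of 0.49 to 0.76 was among the narrowest.

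**Figure D2:**
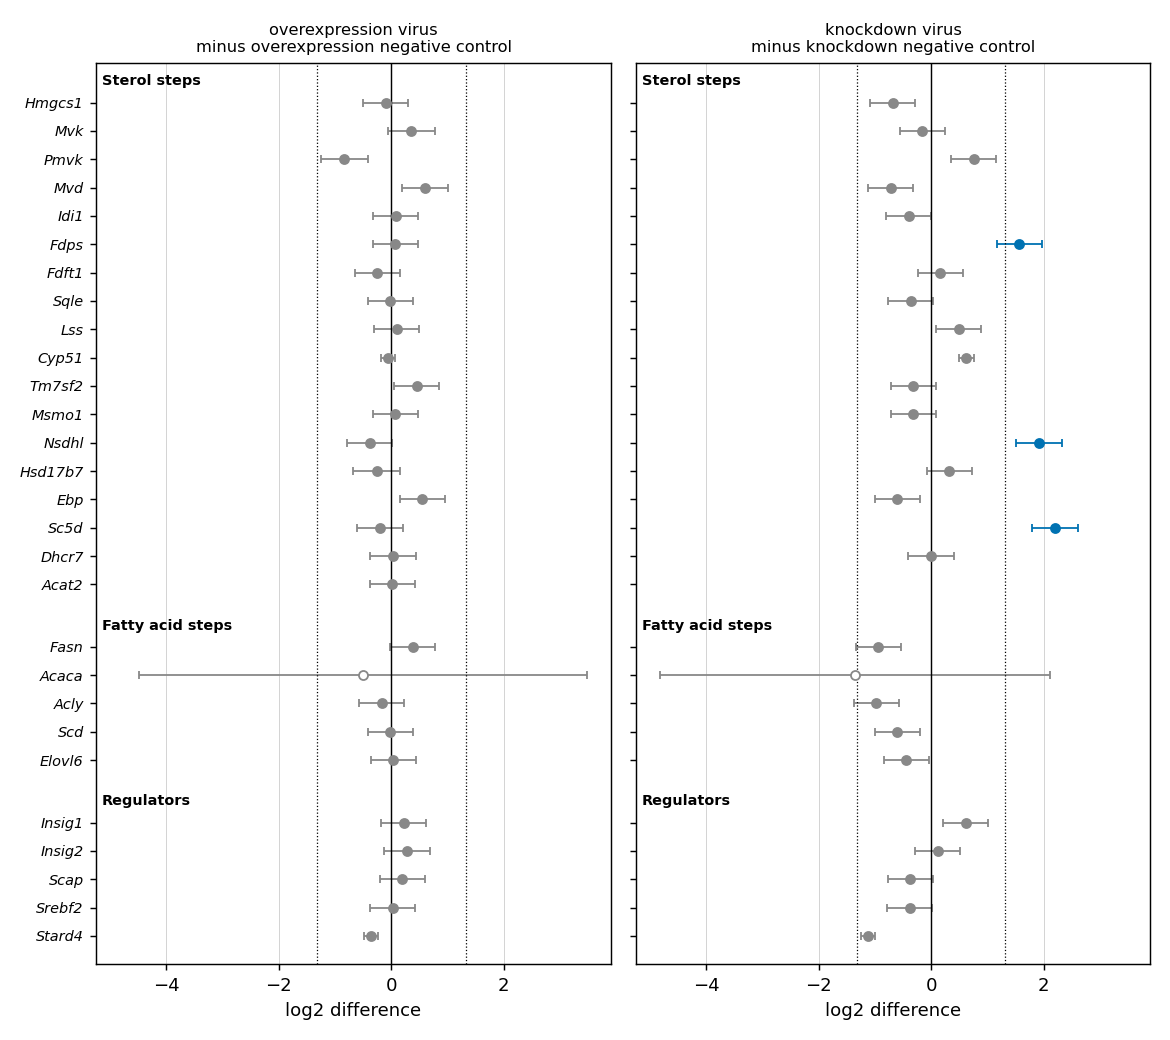
Log2 difference of each member between a virus and its own negative control, with bars for the 95% interval from scanner error; dotted lines mark 2.5-fold, coloured points were called and the open point (Acaca) is below background on both arrays. With the overexpression virus no member passed the lines, and with the knockdown virus Fdps, Nsdhl and Sc5d did.

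The 4 fatty acid enzymes above background were lower with the knockdown virus, but none by 2.5-fold, and the size depended on the processing. Acly, which supplies acetyl-CoA from citrate, had 3.13 with the knockdown virus and 4.11 in its negative control, a difference of -0.98 (-1.38 to -0.58). Fasn had 1.52 with the knockdown virus and 2.46 in its negative control, a difference of -0.94. Scd had 2.42 with the knockdown virus and 3.02 in its negative control, and Elovl6 had 0.85 with the knockdown virus and 1.29 in its negative control. The median was -0.94 over all 5 and -0.77 over the 4 above background, with all genes at -0.23. The median over all 5 depended on the processing: it was -0.41 with quantile normalization, -0.22 with cyclic loess and -0.19 in the authors' deposited table. All genes had medians of -0.13, -0.09 and -0.16 in these, so in the authors' table the fatty acid median lay near that of all genes. Acly, Fasn, Scd and Elovl6 stayed below 0 in all 10 ways of processing the arrays, the reported one included. Acly ranged from -0.98 to -0.22 and Elovl6 from -0.54 to -0.03 over them. Markers of fat cells were lower on the same array: all 5 with a probe lay below their level in the knockdown negative control, with a median of -1.27. The summed level of these markers was 1.57 with the knockdown virus and 2.68 in its negative control. A summed level is the log2 of the markers' unlogged levels added together, so the brightest probes weigh most. All 5 were well above background on both arrays, and their part in the fatty acid values was not tested. All 5 fat cell markers were also lower with the overexpression virus than in its negative control, with a median of -0.49. There the 4 enzymes had a median of 0.01. Against the overexpression negative control, the knockdown array had a median of -0.45 for the markers and -0.79 for the 4 enzymes, with Scd at 0.91. Fewer cells of a type and less RNA per cell cannot be told apart in these bulk samples.

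Of the regulators, no member was called. Insig1, which holds Scap in the endoplasmic reticulum, had 0.41 with the knockdown virus and -0.21 in its negative control, a difference of 0.61. Insig2, its relative, lay at 0.12, Scap at -0.37 and Srebf2, the main SREBP gene of the sterol steps, at -0.38. Stard4, which carries cholesterol between membranes, had -0.85 with the knockdown virus and 0.27 in its negative control, 2.17-fold lower. A second probe of Stard4 went the other way: it had -3.16 with the knockdown virus and was below background in its negative control, which makes it at least 6.80-fold higher. The direction for Stard4 therefore depends on the probe. The brighter probe gave 10 spots, and the dimmer one was also below background in the overexpression negative control but not in normal cells, at -3.55.

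The difference between the negative controls of the overexpression virus and of the knockdown virus shows how far cells with no intended change in Tmub1 lay apart. In this comparison, overexpression control minus knockdown control, 2 of the 26 callable members were lower, or 7.69%, and 0 higher, where 5.22% of all genes were lower and 3.38% higher. Scd had 1.51 in the overexpression negative control and 3.02 in the knockdown negative control, 2.84-fold lower. Insig1 had -1.62 in the overexpression negative control and -0.21 in the knockdown negative control, 2.66-fold lower. For both genes the overexpression virus lay close to its own control, Scd at 1.49 and Insig1 at -1.39. Sc5d, in contrast, differed by 0.10 between these controls, and Fdps by -0.35. Nsdhl differed by 0.80. All 5 fat cell markers were lower in the overexpression negative control than in the knockdown negative control, with a median of -0.68, and their part in the difference in Scd was not tested.

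Because the controls differ, the knockdown array was also set against the overexpression negative control. Sc5d was then 2.11 higher and Fdps 1.92 higher, both again past the threshold, while Nsdhl was 1.11 higher and under it. Insig1 joined the higher ones at 2.03. In that comparison 4 members were lower: Stard4 at -1.85, Acly at -1.63, Hmgcs1 at -1.53 and Ebp at -1.34. The dimmer probe of Stard4 went the other way here too, at least 4.76-fold higher, so this call depends on the probe. The 3 higher members are 11.1% of 27 and the 4 lower ones 14.8%, where 13.6% of all genes were higher and 16.1% lower, so both shares were near those of the whole array. Against both controls, 12 of the 26 members with values above background were lower and 9 higher with the knockdown virus. Over all genes, 8883 of 15061 lay below the knockdown negative control and 9092 of 15137 below the overexpression negative control. The share below both was not counted. Of the fatty acid enzymes above background, 3 of 4 lay below both controls, the exception being Scd. Both comparisons use the same knockdown array. The overexpression array set against the knockdown negative control gave 1 call of 26, Scd at -1.52, where 1.92% of all genes were higher and 2.12% lower.

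**Figure D3:**
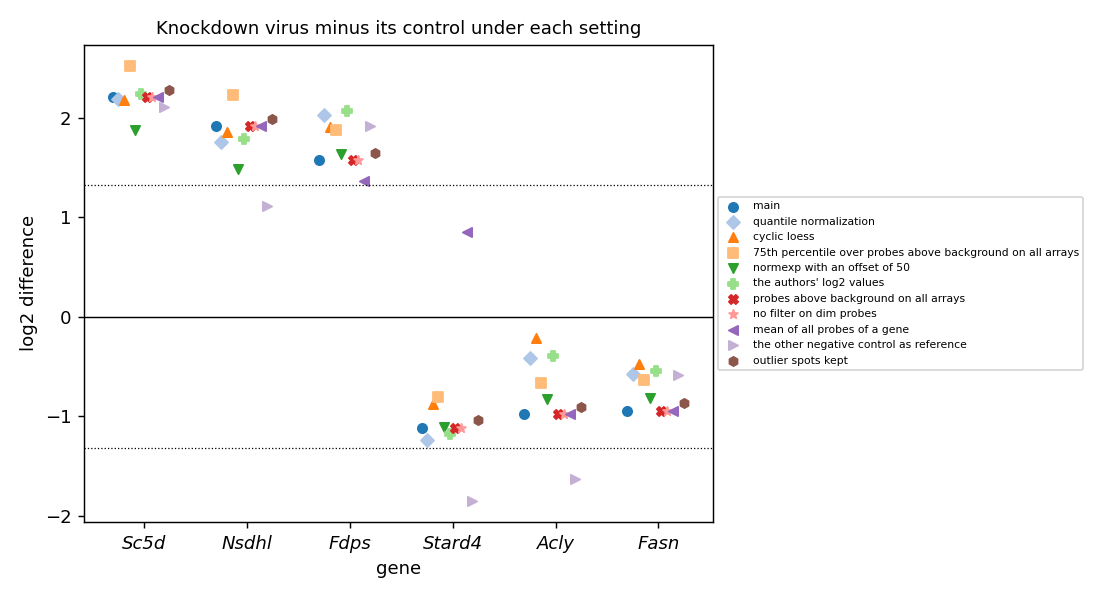
Log2 difference between the knockdown virus and its control for 6 members, each mark 1 way of processing the arrays or the other negative control as the comparison; dotted lines mark 2.5-fold. Sc5d and Fdps lie above the upper line with every mark, Nsdhl falls under it against the other control, and Stard4 turns positive where its probes are averaged.

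Each transduced array was set against normal cells to describe how the pathway differs between cells given any lentivirus and cells given none. No harvest time is recorded for the normal cells, and their array was scanned on another day. Virus, scan day and any difference in harvest or cell stock cannot be told apart here. Most sterol enzymes had a lower level on the transduced arrays. Of the 27 members with a value on all 5 arrays, 15 lay below normal cells on all 4 transduced arrays, which is 55.6%, against 32.3% of all genes. By steps this was 11 of 17 sterol enzymes, 1 of 5 fatty acid enzymes, Acaca included, and 3 of 5 regulators. Sterol medians were -0.58 with the overexpression virus, -0.69 in its negative control, -0.56 with the knockdown virus and -0.68 in its negative control. Over all genes the medians on these arrays lay between -0.33 and -0.10. Over the 4 arrays together the sterol median was -0.66. It stayed below 0, from -0.82 to -0.52, in all 10 ways of processing the arrays, the reported one included.

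By the 2.5-fold threshold, 4 of 27 members were lower with the overexpression virus, or 14.8%, and 0 higher, where 9.26% of all genes were lower and 7.26% higher. In the overexpression negative control, 4 of 27 were lower, or 14.8%, and 0 higher, where 9.9% of all genes were lower and 7.6% higher. With the knockdown virus 7 of 27 were lower, or 25.9%, and 2 higher, where 19.3% of all genes were lower and 11.2% higher. In the knockdown negative control, 5 of 26 were lower, or 19.2%, and 0 higher, where 9.52% of all genes were lower and 7.06% higher. All 4 comparisons use the same normal array, so their calls are not independent of each other, and each share rests on 4 to 7 calls.

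Idi1 and Dhcr7 were called lower on all 4 transduced arrays, as were 2.6% of all genes. Dhcr7 had -1.72 with the overexpression virus, -1.76 in its negative control, -2.03 with the knockdown virus and -2.03 in its negative control, against 0.83 in normal cells. The normal array was the single high one, and the fold difference reached from 5.85 to 7.24. Idi1 had 1.05 with the overexpression virus, 0.97 in its negative control, 0.70 with the knockdown virus and 1.09 in its negative control, against 2.95 in normal cells. It was 3.63-fold to 4.77-fold lower, with the transduced arrays close together. Hmgcs1 had 3.11 with the overexpression virus, 3.21 in its negative control, 1.68 with the knockdown virus and 2.36 in its negative control, against 4.12 in normal cells. Only the knockdown virus and its control passed the threshold for Hmgcs1, at -2.44 and -1.76.

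Further sterol enzymes passed the threshold on 1 or 2 arrays. Fdps was lower with the overexpression virus and in its control, at -1.38 and -1.46, but was 0.46 above normal cells with the knockdown virus. The dimmer probe of Fdps lay below normal cells with the knockdown virus, at -0.60, so the side on that array depends on the probe. Mvd at -1.39 and Msmo1 at -1.44 were called lower with the knockdown virus alone, and Cyp51 at -1.61 in the knockdown negative control alone. Msmo1 and Cyp51 were nevertheless lower on each array, by at least 0.93 and 0.99 on the log2 scale. Hsd17b7 was lower on all 4 arrays, with differences of -1.25 to -0.44 and no call. Mvk, Sqle, Lss and Tm7sf2 were also below normal cells throughout, with no call, and the lowest of their differences was Sqle's -1.18 with the knockdown virus. Sc5d lay below normal cells on the other transduced arrays but was called higher with the knockdown virus, at 1.65. Nsdhl was also called higher with the knockdown virus, at 1.50. It lay at 0.00 with the overexpression virus, 0.39 in its control and -0.42 in the knockdown negative control. Pmvk, Fdft1 and Ebp lay on both sides of normal cells, and Acat2 was near it with the overexpression virus and in its control, at -0.05 and -0.08, and lower with the knockdown virus at -1.30, just short of the threshold.

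**Figure D4:**
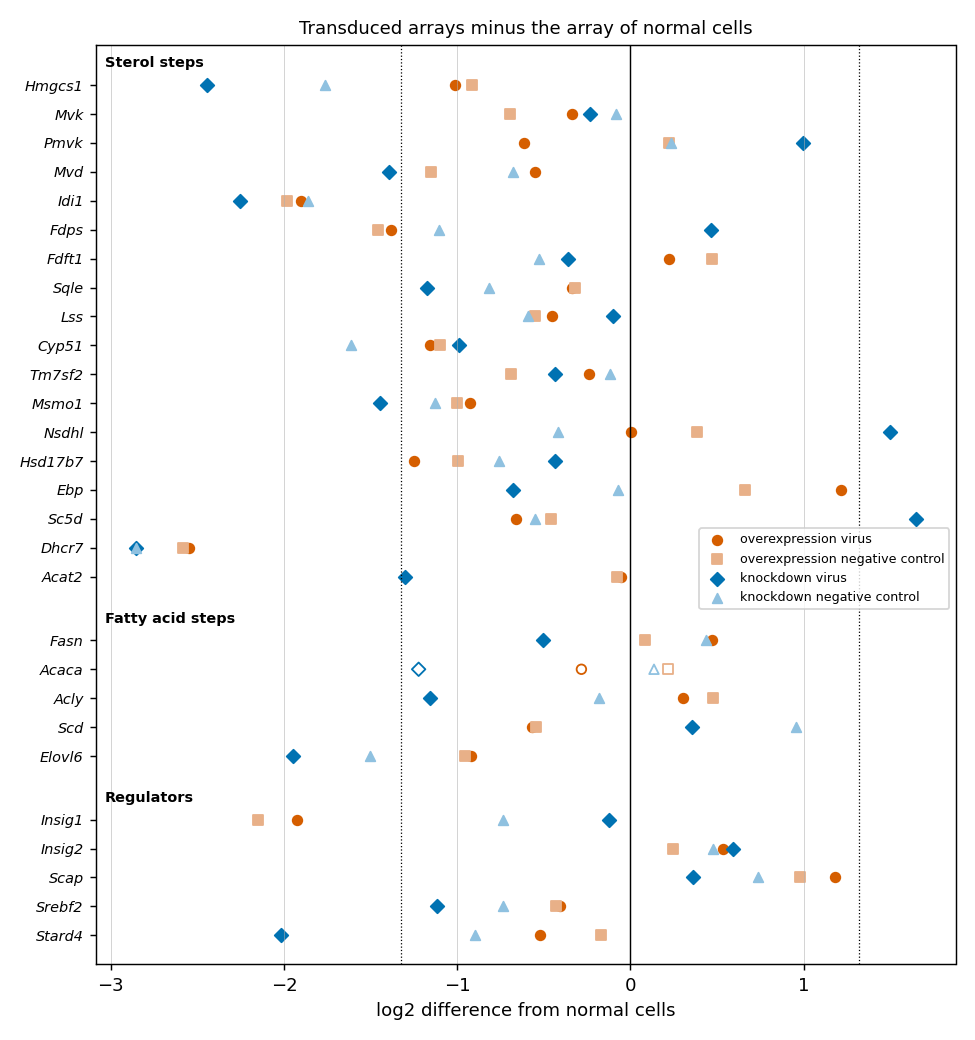
Log2 difference of each member on the 4 transduced arrays from normal cells, each mark 1 array; dotted lines mark 2.5-fold and open marks (Acaca) are below background. All 4 arrays lie left of the left dotted line for Idi1 and Dhcr7, and only the knockdown virus lies right of the right one, for Nsdhl and Sc5d.

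In the fatty acid steps, Elovl6 was the member below normal cells on all 4 arrays, at -0.92 with the overexpression virus, -0.96 in its control, -1.95 with the knockdown virus and -1.50 in its control. The last 2 passed the threshold. Its second probe was well above background only in normal cells, so it too was dimmer on every transduced array. Fasn lay between -0.51 and 0.47, Acly between -1.16 and 0.47 and Scd between -0.57 and 0.96, with no call for any of these. Of the regulators, Insig1 was lower with the overexpression virus at -1.92 and in its control at -2.15, both past the threshold, and lay at -0.12 with the knockdown virus and -0.74 in its control. Stard4 was called lower with the knockdown virus at -2.02, a call that its dimmer probe did not share, at 0.39. Srebf2 lay below normal cells on all 4 arrays, from -1.11 to -0.40. Scap and Insig2 lay above normal cells on all 4 arrays, Scap from 0.36 to 1.18 and Insig2 from 0.25 to 0.59, with no call.

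Marker genes of other cell types moved in these same comparisons. Over all genes, 19.5% lay above normal cells on all 4 transduced arrays and 2.49% were called higher on all 4. All 5 measured fat cell markers were above normal cells on all 4 transduced arrays, 4 of them past the threshold each time. Their summed level was 1.48 to 2.68 on the transduced arrays, against -2.45 in normal cells, where Fabp4 and Lpl were not well above background. Of 5 skeletal muscle markers, 4 were higher past the threshold on all 4 arrays, with a summed level of 3.82 to 4.13 against -0.98 in normal cells. The remaining muscle marker, Myog, lay below normal cells on all 4, at -2.72 to -2.00 against -1.25. It was called lower with the knockdown virus. Of 5 macrophage and leukocyte markers, 4 lay above normal cells on all 4 arrays and 3 passed the threshold each time, with a summed level of 2.43 to 3.02 on the transduced arrays, against 0.72 in normal cells. Itgam, one of these 4, was well above background on the knockdown array alone. Csf1r, the remaining leukocyte marker, lay below normal cells on all 4 arrays, at -1.57 to -0.80 against -0.14. It was called lower with the knockdown virus. The part of these markers in the sterol and fatty acid values was not tested.

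Among 29 other genes of the pathway, from further synthesis enzymes to transport and export, none was called between the overexpression virus and its negative control, out of 26 callable. Between the knockdown virus and its negative control, 1 of 28 was higher and 3 lower, or 3.57% and 10.7%, where 8.53% and 10.1% of all genes were. The higher one was Soat1, which esterifies cholesterol for storage, with 0.28 with the knockdown virus and -1.67 in its negative control. The lower ones were the cholesterol transporters of late endosomes Npc1 and Stard3 and the ubiquitin ligase Mylip, a target of the oxysterol receptors. Npc1 had 1.68 with the knockdown virus and 3.55 in its negative control, and Stard3 had -0.63 against 1.20. Mylip had -1.27 with the knockdown virus and 0.17 in its negative control. A second probe of Npc1 gave -0.77, and a second, dimmer probe of Mylip gave 0.74, in the other direction. The proteases that release SREBP, Mbtps1 and Mbtps2, were 0.72 and 0.64 above their control level with no call.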

How the data were processed

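One-colour Agilent arrays of 5 groups, 1 array each, were used. Per the file headers, the deposited spot values are processed signal in intensity units, background-subtracted and detrended by Feature Extraction 11.0.1.1 and not scaled between arrays; the submitters' processing notes name version 9.1. The authors' deposited table in log2 units has columns with the same quartiles and served as an alternative. Spots marked as outliers and control spots were left out, spots of a probe were averaged on the log2 scale, and each array's 75th percentile was subtracted (Python 3.11.15, numpy 2.4.6, pandas 2.3.3). Where a gene had several probes, the one brightest on average over the arrays was used. Accessions were matched to the RefSeq table; 18005 of 30367 probes had 1 gene. The array design names build rn4, which differs from the table's, so no gene positions are given. With 1 array per group no p-value was computed, and precision is limited by how few arrays there are. The calling step was tested on simulated data. Alternatives used limma 3.58.1 in R 4.3.3; normexp took the median pixel signal, as the files used hold no mean signal. The 2.5-fold threshold follows the series' design text. Named genes were all listed members, Tmub1, and other listed pathway genes past 2.5-fold against a virus's own control (up to 8 per direction by size), plus markers that moved with a result; Mbtps1, Mbtps2 and the genes of the closing observations, were added after their values were seen. 2 genes of the wider pathway list are not reported here. Members and lists were chosen with earlier results of these data known.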

Additional observations from a re-analysis of the deposited data

How the results depend on the processing

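Sc5d, Nsdhl and Fdps stayed past the threshold with the knockdown virus in all 10 ways of processing, the reported one included. These were normalizations, background correction, filters, probe rules and, added after seeing the data, outlier spots kept. Log2 differences were 1.87 to 2.51, 1.49 to 2.23 and 1.37 to 2.07. The filter settings leave these differences unchanged by construction, as does averaging probes for Sc5d and Nsdhl, which have 1 probe each. Fewer than 10 are therefore separate checks. No member called against a virus's own control or between the controls changed sign. Calls against the other negative control and on single arrays against normal cells were not checked for sign. The fatty acid median for the knockdown virus, -0.94 as reported, was -0.41 with quantile normalization, -0.22 with cyclic loess and -0.19 in the authors' log2 values. The medians of all genes in these were -0.13, -0.09 and -0.16. The regulators' median, -0.37, was 0.059 with cyclic loess and 0.12 where a gene's probes were averaged, and the fatty acid median between the negative controls, 0.08, was -0.35 with cyclic loess. Between the negative controls 1 member was called with quantile normalization, with normexp and in the authors' values, and 0 at 4-fold, against 2. At 4-fold 1 member was called for the knockdown virus and the comparisons with normal cells, which share 1 normal array, gave 8 calls, against 22, and 36 at 2-fold. Set against the other negative control, 1 member was called for the overexpression virus and 7 for the knockdown virus, and against normal cells 4 and 9; the medians against normal cells were then -0.58 and -0.56 for the sterol steps and -0.40 for the regulators with the overexpression virus. The cause of these shifts was not tested. The median of all genes for the knockdown virus, -0.23, lay between -0.58 (normexp) and 0.077, and against normal cells, -0.16, between -0.30 and 0.089. Of all genes called for the knockdown virus, 45.7% were higher, against 71.2% with the percentile over probes above background on all arrays, 34.0% with normexp and 56.6% with cyclic loess; of those called against normal cells 40.8% were higher, against 64.6%, 70.8% and 63.3% with quantile normalization, cyclic loess and the authors' values. No paired analysis was possible because the groups share only 1 replicate number, and with 1 array per group no array could be left out. Signal over background limits Acaca, which has no usable level, and the dimmer probes of Stard4 and Elovl6.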

Other observations

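Of 7 genes of cholesterol export and its control, named after their values were seen, 4 were above normal cells on all 4 transduced arrays, where 19.5% of all genes were. One of the 4, Nr1h2, the oxysterol receptor LXR beta, was at 0.30 in the overexpression negative control and 0.30 in normal cells, and the other 3 are given here. Nr1h3, the oxysterol receptor LXR alpha, had -1.83 with the overexpression virus, -1.39 in its negative control, -1.71 with the knockdown virus and -1.37 in its negative control, against -3.38 in normal cells, and passed 2.5-fold on each array. Abcg1, an exporter of cholesterol, had -2.38 with the overexpression virus, -2.24 in its negative control, -2.64 with the knockdown virus and -1.80 in its negative control, and was below background in normal cells. It was at least 14.4-fold higher on each transduced array. Nr1h3 and Abcg1 were thus called higher on all 4 arrays, as were 2.49% of all genes. Abca1, another exporter, had -1.69 with the overexpression virus, -1.84 in its negative control, -0.30 with the knockdown virus and -1.46 in its negative control, against -2.56 in normal cells. It passed the threshold with the knockdown virus alone, at 4.77-fold. Markers of fat cells and, except for Csf1r, of macrophages were higher on the same arrays. These cells also express the exporters, and their part was not tested.

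Thrsp, a gene of lipid-forming tissues, was the largest such difference among the synthesis genes outside the member list, with -2.33 with the overexpression virus, -1.67 in its negative control, -1.68 with the knockdown virus and -1.31 in its negative control, against -5.72 in normal cells.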
